A study of Mus musculus with 10 samples.

Results

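Retinoic acid synthesis and reception were followed through 8 genes: the retinol dehydrogenase gene Rdh10, the retinaldehyde dehydrogenase genes Aldh1a1, Aldh1a2 and Aldh1a3, the carrier gene Crabp2, and the receptor genes Rara, Rarb and Rarg. They were found by symbol among the 24391 genes of the count files. The set was chosen on the contrast between MYCN on and MYCN off, in which Aldh1a3 is among the largest falls. On-against-off values of these 8 genes are therefore given as a description, without a p. Their SE was derived from the test of that same contrast, so the log2 change relative to its SE supports nothing. Counts of those past a threshold are printed beside the share over all genes and support nothing either. RNA was sequenced from mouse small cell lung cancer cells of 5 lines (G4314, G9351, G9488, G9529, and the line G9577), with 1 library for each line and condition. All carry the genotype label Rb;p53,TRE-MYCN, LSL-RTTA, which names altered Rb and p53, a MYCN transgene behind a tetracycline-responsive element, and the reverse tetracycline activator behind a lox-stop-lox cassette. The on group was grown with doxycycline, which switches the transgene on, and the off group had gone 4 days without it. Both groups share the Rb and p53 alterations, and a transgene-free culture given doxycycline is not among the samples, so the drug and MYCN cannot be told apart.

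Retinoic acid is made from vitamin A in a pair of oxidation steps. Retinol dehydrogenases, with RDH10 as the main one in the embryo, turn retinol into retinaldehyde, and the ALDH1A enzymes oxidise retinaldehyde to retinoic acid. CRABP2 carries retinoic acid to the nucleus, where the receptors RARα, RARβ and RARγ pair with RXR receptors on DNA, and CYP26 enzymes break retinoic acid down. In the lung the pathway is known for its part in budding, in alveolar formation and in epithelial differentiation.

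The best-known binding site of a RAR-RXR pair is a direct repeat of a short half-site, which in the classical case lies in the promoters of Rarb and Cyp26a1. The 250 bases before the RefSeq start site of both genes (GRCm38.p6, from RefSeq) are shown because they hold such a repeat, and that of a Rara transcript because it holds a CACGTG E-box, the preferred site of MYC proteins. Capitals mark the repeat or the E-box.
Rarb, chr14:16575477-16575726, minus strand: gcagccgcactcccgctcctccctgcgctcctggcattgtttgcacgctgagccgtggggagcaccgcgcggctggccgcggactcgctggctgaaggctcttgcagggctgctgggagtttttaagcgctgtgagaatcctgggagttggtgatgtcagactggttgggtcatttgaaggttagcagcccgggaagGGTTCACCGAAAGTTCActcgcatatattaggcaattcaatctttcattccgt
Cyp26a1, chr19:37697558-37697807, plus strand: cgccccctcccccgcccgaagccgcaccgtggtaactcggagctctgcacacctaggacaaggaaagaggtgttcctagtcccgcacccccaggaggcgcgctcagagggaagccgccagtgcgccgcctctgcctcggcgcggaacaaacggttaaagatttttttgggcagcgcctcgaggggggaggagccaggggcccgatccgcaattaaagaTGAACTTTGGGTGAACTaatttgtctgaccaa
Rara, chr11:98937468-98937717, plus strand: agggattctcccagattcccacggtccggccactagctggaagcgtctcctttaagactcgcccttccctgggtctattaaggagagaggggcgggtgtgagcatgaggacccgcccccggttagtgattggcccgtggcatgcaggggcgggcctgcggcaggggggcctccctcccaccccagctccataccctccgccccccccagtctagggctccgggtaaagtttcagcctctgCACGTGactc

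The repeat searched, called DR5 for the spacing of its full half-sites, was a same-direction pair of the cores GGTCA or GTTCA, in any combination, with 6 bases between the cores, on either strand. Its first base lay 53 bases before the start site in Rarb and 32 before it in Cyp26a1, and 0.247% of 32851 RefSeq promoters of 300 bases (250 before and 50 after the start) held one. The E-box of the Rara window began 10 bases before the start, and 7.15% of promoters held a CACGTG. The promoter table used here matched 5 of the 8 genes, in 10 windows: Aldh1a1, Aldh1a2, Rara, Rarb and Rarg. A DR2 repeat, with the same cores and 3 bases between them (0.399% of promoters), was in none of these windows, and DR5 was only in that of Rarb. The windows of Aldh1a1, Aldh1a2 and Rarg held none of the 3 motifs. These matches describe the letters in the windows; binding was not measured.

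Each library held 9586465 to 11960074 counts. Levels are given as CPM, which are gene counts relative to the library's total over the genes tested, scaled by TMM factors. Mycn, the targeted oncogene, was higher with doxycycline in 5 of 5 lines, from 27.6 to 189 CPM without it to 496 to 977 CPM with it (log2 change 2.86, SE 0.38, adjusted p = 0.00421 by the quasi-likelihood test of edgeR, with Benjamini-Hochberg correction over 12835 genes). No source used here names the species of the MYCN transgene, and reads of a transgene from another species may be counted on mouse Mycn only in part. Line G9577 stood apart from the neuroendocrine label of this tumour type. Its summed level of 11 neuroendocrine markers was 249 CPM off and 238 CPM on, against 5693 to 7270 CPM off and 3532 to 4407 CPM on in the other 4 lines, and Dll3 had no count in it. All 8 mesenchymal or non-neuroendocrine markers were detected in G9577, with a sum of 6730 CPM off and 2969 CPM on against 54.2 to 183 CPM in the other lines, and 6 fibroblast markers summed to 2249 CPM off and 202 CPM on against at most 5.86 CPM. The 6 immune markers summed to 5.90 CPM off and 3.45 CPM on in G9577, with 2 and 1 of them reaching 1 CPM and Ptprc, Adgre1 and Cd3e at 0, against 1.18 to 5.80 CPM elsewhere. The 3 endothelial markers summed to 131 CPM off and 35.7 CPM on in G9577, against at most 2.35 CPM elsewhere. In G9577 only 1 of them reached 1 CPM off and 1 on, and Cdh5 was at 0. The 5 alveolar, club and ciliated markers summed to 162 CPM off and 3.82 CPM on in G9577, against 7.06 to 21.0 CPM elsewhere. In G9577, 3 of them reached 1 CPM off and 1 on, and Scgb1a1 was at 0. The part of this marker profile in the results was not tested.

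Aldh1a3, whose enzyme makes retinoic acid in the eye, nose and several epithelia (mm9 chr7:73535779-73572363, minus strand), was highest in G4314 and G9577. Without doxycycline it was at 58.4 CPM in G4314 (645 counts), 47.0 in G9577 (422 counts), 4.22 in G9351 (45 counts), 2.99 in G9529 (34 counts) and 0.0978 in G9488 (1 count). With doxycycline it was at 2.06 CPM in G4314 (21 counts), 0.592 in G9351 (6 counts) and 0.559 in G9577 (6 counts), and had no count in G9488 or G9529. Each of the 4 lines with more than 3 counts when off was lower with MYCN on, whichever its starting level. Its level was 84.0-fold lower in G9577, 28.4-fold lower in G4314, 7.12-fold lower in G9351 and at least 10.5-fold lower in G9529, the last against a floor of 3 counts in that library (0.285 CPM). In G9488 both libraries were at or under the floor, so no fold is given. The mean was 22.5 ± 27.9 CPM off and 0.642 ± 0.843 CPM on (SD, n = 5 lines), and the ranges of the groups overlapped through the low off library of G9488. The fitted log2 change was -4.93 (SE 0.61, a 30.4-fold lower level), the 2nd lowest of all genes tested. It was 20.01-fold without G9577 and 48.4-fold without G9351, and without G4314 the gene did not pass the filter on low counts. In bulk RNA, fewer cells of a type and less RNA per cell cannot be told apart.

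Aldh1a1, a second retinaldehyde dehydrogenase and a marker used for stem-like tumour cells (mm9 chr19:20676472-20717952, plus strand), was lower with MYCN on in 4 of 5 lines. Without doxycycline it was at 234 CPM in G9488, 52.4 in G4314, 33.9 in G9529, 14.5 in G9351 and 3.34 in G9577. With doxycycline the same lines were at 36.7, 13.2, 6.46, 6.81 and 5.68 CPM. The level was 6.38-fold lower in G9488, 5.25-fold lower in G9529, 3.96-fold lower in G4314 and 2.13-fold lower in G9351, while G9577 went from 30 to 61 counts, 1.70-fold higher. On-group values lay inside the range of the off group. The mean was 67.7 ± 95.1 CPM off and 13.8 ± 13.2 CPM on (SD, n = 5 lines), and the fitted log2 change was -1.60 (SE 0.48). It ran from -2.06 without G9577 to -1.23 without G9488.

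Aldh1a1 has a near copy, Aldh1a7, whose counts were larger in 4 lines. Of the 50-base windows in Aldh1a1 transcripts of GENCODE vM21, 151 of 4934 (3.06%) also occur in Aldh1a7, and they make up 7.49% of the windows of Aldh1a7. No window was shared among Aldh1a1, Aldh1a2 and Aldh1a3 or among the 3 receptors, and no exon base of the 8 genes is shared with another gene in the files' annotation. Reads that map to both copies were not counted, so both levels leave out the shared stretches. Aldh1a7, named here after its values were seen, went from 1087 to 1850 CPM with doxycycline in G9488, the line in which Aldh1a1 was lower by the largest fold. It went from 267 to 465 CPM in G4314, and was at 229 and 219 CPM in G9351, 418 and 377 CPM in G9529, and 1.78 and 2.70 CPM in G9577.

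Aldh1a2, the main retinoic acid-making enzyme of the embryonic trunk (mm9 chr9:71063596-71144050, plus strand), was highest in G4314 and G9351. Its levels off and on were 26.0 and 21.6 CPM in G4314, 23.8 and 5.23 in G9351, 6.16 and 2.32 in G9488, 4.05 and 2.57 in G9529, and 0.223 and 0.559 in G9577 (2 and 6 counts). The on-group values thus lay inside the off-group range, and G9351 showed the widest gap, 4.55-fold, against 1.21-fold in G4314. The fitted log2 change was -0.91 (SE 0.42), and -0.53 without G9351.

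Rdh10, which makes the retinaldehyde that these enzymes use (mm9 chr1:16095963-16122631, plus strand), varied least among the 8 genes in the off group relative to its mean. It was at 7.70, 7.87, 7.24, 4.67 and 14.2 CPM off and 9.31, 8.19, 11.3, 13.2 and 11.1 CPM on in G4314, G9351, G9488, G9529 and G9577. The groups overlapped, and G9577 alone was lower with MYCN on. The fitted log2 change was 0.41 (SE 0.30), 0.62 without G9577 and 0.13 without G9529, the line with the largest difference (2.83-fold).

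**Figure D1:**
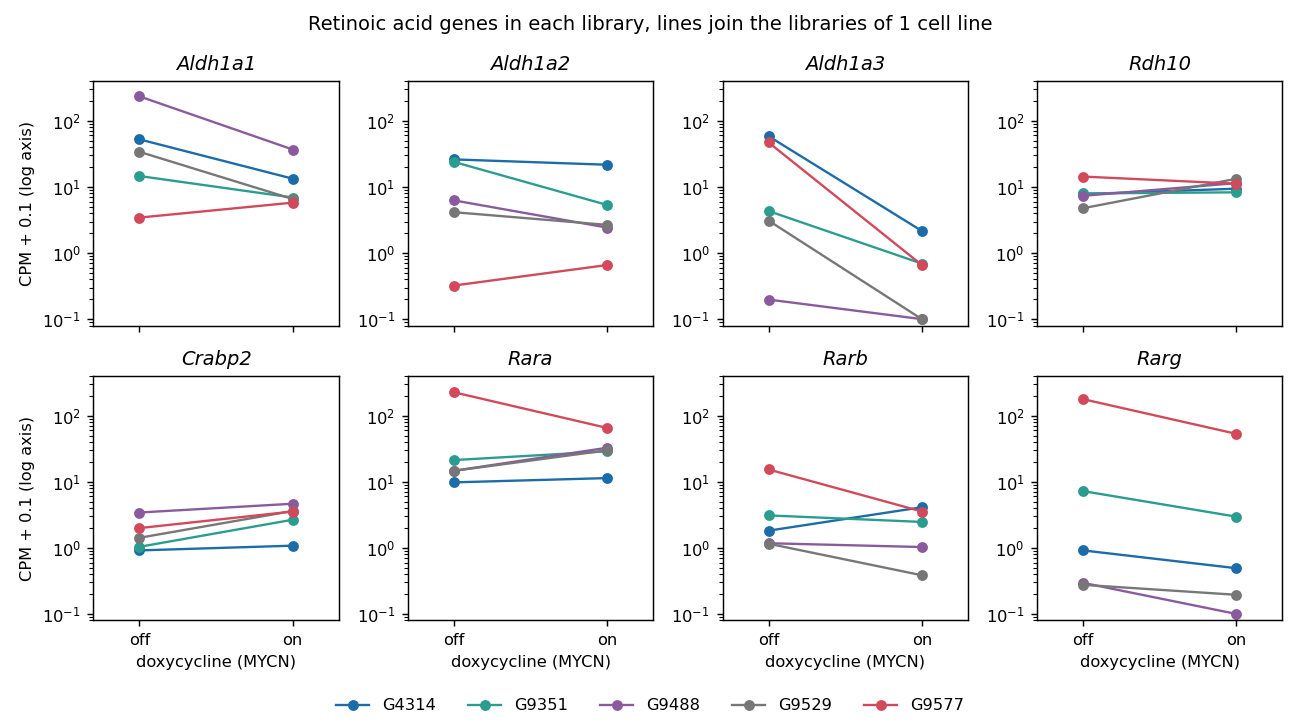
CPM (TMM-scaled, plus 0.1, on a log axis) of the 8 genes in each library, with MYCN off at the left and on at the right of each panel; each line of the plot joins the 2 libraries of 1 cell line. Aldh1a3 drops from up to 58.4 CPM to at most 2.06 CPM, while G9577 sits far above the other lines for Rara and Rarg.

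To compare the 3 ALDH1A genes with each other, levels were divided by exon length (CPM per kilobase). Their sum went from 118 to 19.1 in G9488, from 54.4 to 16.6 in G4314, from 19.4 to 4.31 in G9529, from 18.9 to 5.84 in G9351 and from 15.6 to 3.21 in G9577. It was thus lower with MYCN on in 5 of 5 lines, between 3.24-fold (G9351) and 6.19-fold (G9488), although a different gene made up the largest part of it in different lines. Without doxycycline, Aldh1a1 was the highest per length in G4314, G9488 and G9529, Aldh1a2 in G9351 and Aldh1a3 in G9577. With doxycycline, Aldh1a1 was the highest in all lines but G4314, where Aldh1a2 was. The sum inherits the choice of the genes and is a description. It leaves out the near copy Aldh1a7, and its direction depends on that in 2 lines. With Aldh1a7 added, the sum was higher with MYCN on in G9488 (646 to 917 CPM per kilobase) and G4314 (184 to 242), and lower in G9351 (130.3 to 112), G9529 (222 to 187) and G9577 (16.4 to 4.52). Activity on retinaldehyde was not measured for any of these enzymes, that of Aldh1a7 included. Both sums thus describe RNA and not the capacity to make retinoic acid.

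**Figure D2:**
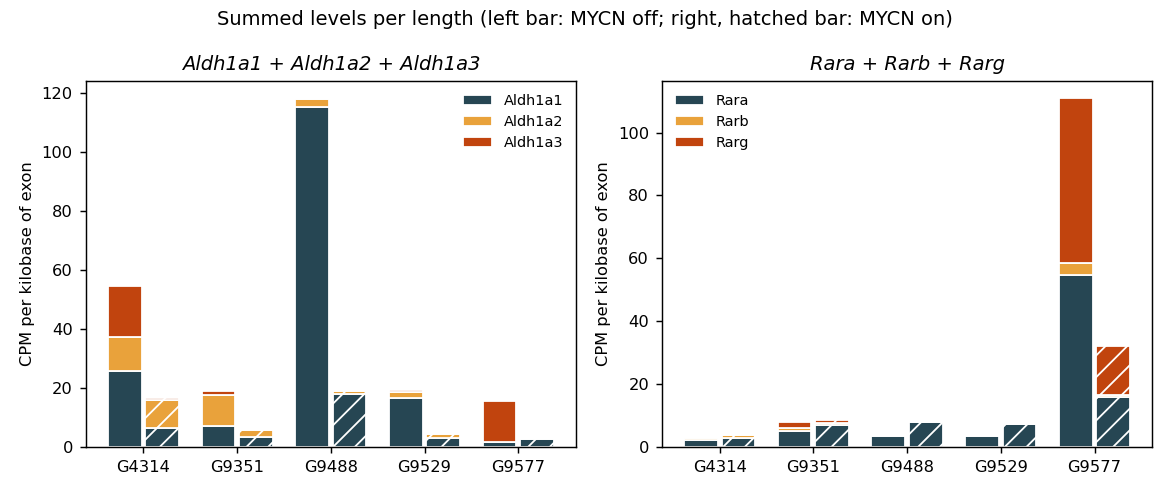
Stacked CPM per kilobase of exon for the 3 ALDH1A genes (left panel) and the 3 retinoic acid receptors (right panel) in each line, with plain bars for MYCN off and hatched bars for MYCN on. The ALDH1A stack, which leaves out Aldh1a7, is lower with MYCN on in every line, from 118 to 19.1 in G9488, while the receptor stack is lower in G9577 alone, from 111 to 32.2.

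Crabp2, the carrier that hands retinoic acid to its receptors (mm9 chr3:87752615-87757294, plus strand), was low throughout and higher with MYCN on in 5 of 5 lines. Counts off and on were 9 and 10 in G4314, 10 and 26 in G9351, 34 and 49 in G9488, 15 and 37 in G9529, and 17 and 37 in G9577. In CPM these were 0.815 and 0.980, 0.937 and 2.57, 3.33 and 4.55, 1.32 and 3.52, and 1.89 and 3.45, so the groups overlapped. The fitted log2 change was 0.89 (SE 0.30), and 0.74 to 1.06 with each line left out in turn.

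Rara, the most widely expressed of the receptors (mm9 chr11:98799010-98836256, plus strand), differed in direction between G9577 and the rest. It was higher with MYCN on in 4 lines, from 14.6 to 32.6 CPM in G9488 (2.24-fold), 14.5 to 29.8 in G9529 (2.05-fold), 21.2 to 28.8 in G9351 (1.36-fold) and 9.69 to 11.3 in G4314 (1.16-fold). In G9577 it went from 226 to 65.0 CPM, 3.47-fold lower, and both libraries of that line lay above all 8 others. The fitted log2 change was 0.24 (SE 0.43) over all lines, 0.73 without G9577 and 0.00 without G9529. Its sign turned with limma-voom (-0.19) and with no line block (-0.77).

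Rarb, itself a classical target of retinoic acid (mm9 chr14:17263354-17914845, minus strand), was highest in the off library of G9577 and at most 4.02 CPM in all others. Its levels off and on were 1.72 and 4.02 CPM in G4314 (19 and 41 counts), 3.0 and 2.37 in G9351, 1.08 and 0.930 in G9488, 1.06 and 0.285 in G9529 (12 and 3 counts), and 15.3 and 3.45 in G9577 (137 and 37 counts). It was thus lower with MYCN on in 4 lines and higher in G4314, with overlapping groups. The fitted log2 change was -0.62 (SE 0.54), -0.07 without G9577 and -1.15 without G4314.

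Rarg, the receptor best known from skin and cartilage (mm9 chr15:102065369-102087953, minus strand), did not pass the filter on low counts and was not tested. It was at 177 CPM off and 52.9 CPM on in G9577 (1594 and 568 counts), 3.35-fold lower. In G9351 it went from 7.12 to 2.86 CPM (76 and 29 counts), 2.49-fold lower, and in G4314 from 9 to 4 counts, 2.08-fold lower. G9488 had 2 and 0 counts and G9529 had 2 and 1, too few for a fold.

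Per length, Rara was the highest of the 3 receptors in each library. The receptor sum was 3.04 CPM per kilobase off and 3.91 on in G4314, 8.02 and 8.44 in G9351, 3.87 and 8.14 in G9488, 3.85 and 7.33 in G9529, and 111 and 32.2 in G9577. The off library of G9577, with the highest receptor sum, was also the one with the highest fibroblast and mesenchymal marker sums, and the part of these in the receptor levels was not tested.

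**Figure D3:**
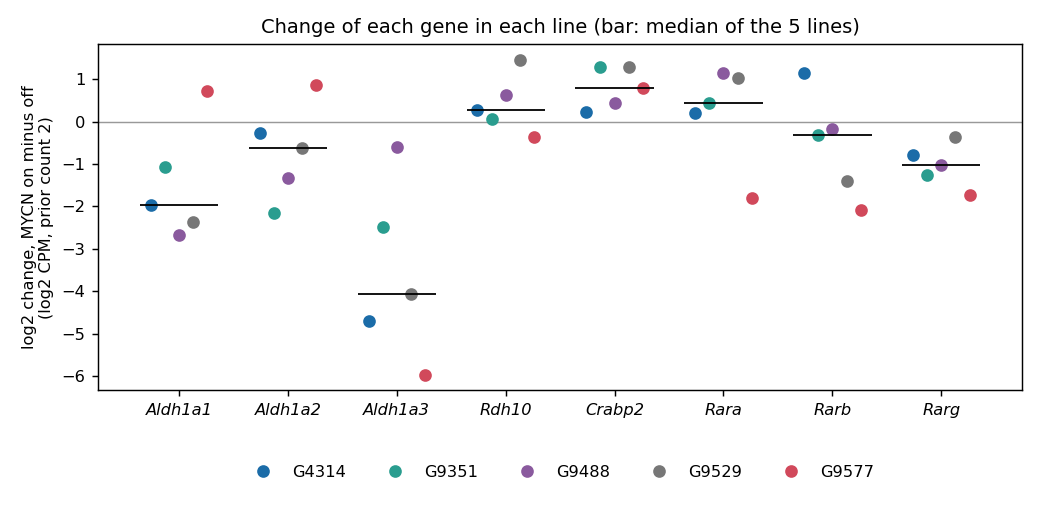
Log2 change, MYCN on minus off (log2 CPM with a prior count of 2), of each of the 8 genes in each of the 5 lines, with the median of the lines as a bar. Aldh1a3 and Rarg lie below 0 in every line and Crabp2 above 0 in every line, while G9577 is on the other side of 0 from the remaining lines for Aldh1a1, Aldh1a2, Rdh10 and Rara. Some points rest on too few counts to give a direction. Counts off and on were 1 and 0 for Aldh1a3 in G9488, and 2 and 6 for Aldh1a2 in G9577. For Rarg they were 2 and 0 in G9488 and 2 and 1 in G9529.

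Of the 8 genes, 7 passed the filter. Aldh1a1 and Aldh1a3 were past the threshold (adjusted p of 0.05) for lower levels with MYCN on, where 15.6% of all genes tested were called lower, 15.3% higher and 31.0% in either direction. Without G9577, 4 were past it, against 34.8% of genes in that fit: Aldh1a1, Aldh1a2 and Aldh1a3 on the lower side and Rara on the higher. With any other line left out, Aldh1a1 was not past it. Since the set was chosen on this contrast, nothing is read from these counts.

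Differences among the lines were not used in the choice, and were tested in the same model with doxycycline as a covariate. Of the 7 genes tested, 5 differed among the lines, where 45.6% of all genes did (quasi-likelihood test of the line term in edgeR, Benjamini-Hochberg adjusted over all genes): Aldh1a3 (adjusted p = 0.0032), Aldh1a2 (0.00373), Rara (0.0119), Aldh1a1 (0.0125) and Rarb (0.0352). Aldh1a2 ranged from 0.223 CPM in G9577 to 26.0 CPM in G4314 among the off libraries, a wider span than its gap between conditions in any line. For Aldh1a3 the line term was lost with line as the only term (adjusted p = 0.211), and without G4314 it had no value, since the gene did not pass the filter. The on libraries held at most 21 counts of Aldh1a3, so it passed that filter mainly through the off group. Its line call is therefore a description. For Aldh1a1 the order in the off libraries ran from G9488 down to G9577. Its line term was lost without G9488 (adjusted p = 0.151) and with line as the only term (0.0649). For Rara the line term was lost without G9577 (adjusted p = 0.0633). For Rarb it was lost without G9488 (0.0822), G9529 (0.0842) or G9577 (0.106), and with line as the only term (0.0622). Crabp2 missed the threshold (adjusted p = 0.0528) but passed it with DESeq2 (0.0405) and without G9529 (0.0481), and Rdh10 missed it (0.631).

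Other genes of the retinoid pathway and of the aldehyde dehydrogenase family, together called pathway genes here, were read from 6 lists. These held 95 genes, of which 61 were tested. The list of other aldehyde dehydrogenases, some known for other pathways, had 15 genes tested. It gave 3 of the rises and 2 of the falls. With MYCN on, 6 of the 61 rose and 11 fell, where 15.3% of all genes tested rose and 15.6% fell, and the median log2 change was -0.33 against -0.08 over all genes tested. Without G9577, 22 passed, where 34.8% of all genes tested in that fit did. Adjusted p-values of these genes come from the quasi-likelihood test of edgeR and are Benjamini-Hochberg adjusted over all genes tested.

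Among 14 genes of retinoid uptake, transport and storage, 7 were tested, 0 rose (15.3% of all genes did) and 1 fell (15.6% did) in edgeR. At an unadjusted p of 0.05, 1 was higher, and DESeq2 called 1 higher and limma-voom 0. Over all 12835 genes tested, DESeq2 called 2283 higher and limma-voom 2089. Fabp5, whose protein can carry retinoic acid, is named here after its values were seen and was not called by edgeR. It was higher with doxycycline in each line, from 1.14-fold in G9529 to 25.7-fold in G9577. The median log2 change of the 7 genes tested was -0.33. The gene that fell was Ttr, transthyretin, which carries the plasma retinol-binding protein. It went from 48.2 to 3.04 CPM in G4314, 13.7 to 0.296 in G9351, 10.9 to 0.651 in G9488 and 6.25 to 0.0950 in G9529, and had 2 and 0 counts in G9577. The off and on values did not overlap in the 4 neuroendocrine lines, and the fitted log2 change was -4.55 (SE 0.39, adjusted p = 0.00265). Its on libraries held at most 31 counts, so it passed the filter on low counts mainly through the off group, and without G4314 it gave no value.

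Among 18 retinol and retinaldehyde dehydrogenases and reductases, 10 were tested, 2 rose (15.3% of all genes did) and 0 fell (15.6% did) in edgeR. At an unadjusted p of 0.05, 1 was lower, and DESeq2 called 1 lower and limma-voom 0. Over all 12835 genes tested, DESeq2 called 2997 lower and limma-voom 2378. Adh5, a broadly expressed alcohol dehydrogenase that also clears formaldehyde, rose from 124 ± 26.6 to 217 ± 38.3 CPM (SD, n = 5), higher in 5 of 5 lines (log2 change 0.81, SE 0.10, adjusted p = 0.00368). Rdh11, a retinaldehyde reductase, rose from 25.6 ± 7.59 to 40.4 ± 4.04 CPM (log2 change 0.70, SE 0.21, adjusted p = 0.0403), higher in 4 of 5 lines. Its call was lost without G4314, G9351, G9488 or G9529 (adjusted p = 0.0784 to 0.129).

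Among 17 other aldehyde dehydrogenases, 15 were tested, 3 rose (15.3% of all genes did) and 2 fell (15.6% did). Those that rose are known for other pathways: Aldh18a1, the first enzyme of proline synthesis (58.4 ± 22.3 to 237 ± 71.3 CPM, log2 change 2.06, SE 0.19, adjusted p = 0.00265), Aldh1l2, a mitochondrial folate enzyme (46.4 ± 16.9 to 168 ± 87.8 CPM, log2 change 1.74, SE 0.23, adjusted p = 0.00419), and Aldh9a1, which acts in carnitine synthesis (log2 change 0.50, SE 0.15, adjusted p = 0.0433). Aldh18a1 and Aldh1l2 were higher in 5 of 5 lines. Aldh3a1, which oxidises aromatic and fatty aldehydes, fell by 3.20 on the log2 scale (SE 0.49, adjusted p = 0.00554), from 219.5 to 9.88 CPM in G9577 and from at most 6.43 CPM elsewhere. Its counts off and on were low in those lines: 71 and 11 in G4314, 42 and 7 in G9351, 11 and 1 in G9529, and 3 and 2 in G9488. Without G9577 its level was 5.22-fold lower instead of 9.18-fold. Aldh3a2, a fatty aldehyde dehydrogenase, fell by 0.81 (SE 0.24, adjusted p = 0.0396). The calls of Aldh9a1 and Aldh3a2 were each lost with 4 of the 5 lines left out, Aldh9a1 without any but G4314 (adjusted p = 0.0540 to 0.160) and Aldh3a2 without any but G9488 (0.0586 to 0.120).

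None of the 3 breakdown genes passed the filter. Cyp26a1, the most retinoic acid-responsive of them, was at most 0.562 CPM (6 counts) in any library, and Cyp26c1 at most 0.197 CPM. Cyp26b1 was at 50.7 CPM off and 78.6 CPM on in G9577 and at most 0.453 CPM in the other lines.

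Among 18 partner receptors and coregulators, 17 were tested, 1 rose (15.3% of all genes did) and 4 fell (15.6% did). The coactivator genes Ncoa1 (log2 change -0.52, adjusted p = 0.0143), Crebbp (-0.50, 0.0170), Kat2b (-0.80, 0.0349) and Ncoa2 (-0.44, 0.0359) fell, each lower in 5 of 5 lines, and Med1, a subunit of the Mediator complex that binds nuclear receptors, rose (0.56, 0.0157), higher in 5 of 5. Each of these 5 calls was lost without at least 1 line: Ncoa1 without G9351 (adjusted p = 0.0534), Med1 without G4314 or G9351 (0.0598 and 0.0549), Crebbp without G9351 or G9488 (0.0611 and 0.0534), Kat2b without G4314, G9488 or G9529 (0.0653 to 0.0743; its log2 change was -0.55 without G9577), and Ncoa2 without any but G9577 (0.0609 to 0.107). Of the RXR partners, Rxrb was at 84.8 to 119 CPM in all libraries (log2 change -0.06, SE 0.13, adjusted p = 0.754). Rxra was at 336 and 87.6 CPM in G9577 and at 19.6 to 56.6 CPM elsewhere (log2 change -0.50, SE 0.29, adjusted p = 0.225; -0.14 without G9577), and Rxrg had no count.

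Among 25 genes known to be induced by retinoic acid, 12 were tested, 0 rose (15.3% of all genes did) and 4 fell (15.6% did) in edgeR. Whether these shares differ was not tested. None was higher at an unadjusted p of 0.05 either, and DESeq2 and limma-voom called 0 higher and 6 and 5 lower. Over all 12835 genes tested, DESeq2 called 2997 lower and limma-voom 2378, against 2004 in edgeR. Tgm2, the tissue transglutaminase, fell by 1.62 on the log2 scale (SE 0.22, adjusted p = 0.0045), from 215.5 to 55.6 CPM in G9577 and from 8.02 to 2.42 in G9488, 4.17 to 1.37 in G4314, 4.05 to 1.33 in G9529 and 0.656 to 0.493 in G9351. Ret, the receptor of glial cell line-derived neurotrophic factor ligands, fell by 1.04 (SE 0.16, adjusted p = 0.00588). It went from 468 to 208 CPM in G4314, 478 to 220 in G9351, 430 to 229 in G9488 and 294 to 190.4 in G9529, and was at 2.45 and 0.652 CPM in G9577. Foxa1, a factor that opens chromatin in endoderm, fell by 0.50 (SE 0.11, adjusted p = 0.0154) and was lower in 5 of 5 lines. Hoxb5 fell by 1.11 (SE 0.27, adjusted p = 0.0215) and was lower in 4 of 5. The calls of Tgm2 and Ret held with each line left out, while that of Foxa1 was lost without G4314 (adjusted p = 0.0622) or G9351 (0.0678), and barely without G9488 and that of Hoxb5 without G4314, G9351 or G9529 (0.0735 to 0.1002).

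**Figure D4:**
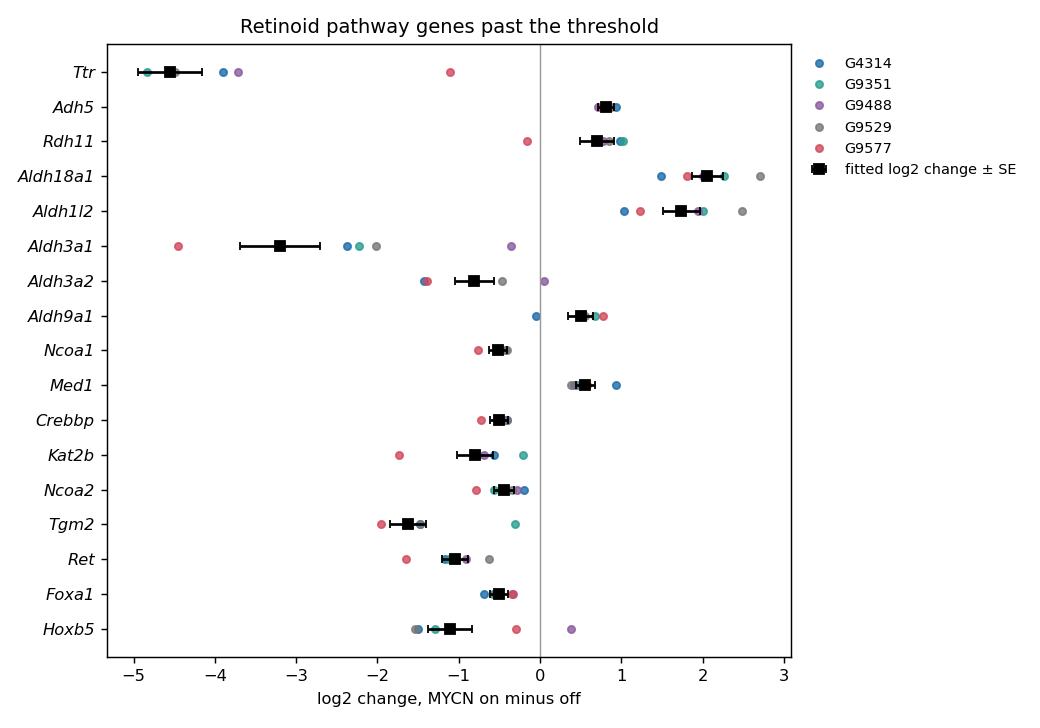
Log2 change, MYCN on minus off, of the 17 pathway genes past the threshold, ordered by list: squares with bars are the fitted change ± SE over 5 lines, and coloured points are the changes of single lines. Ttr and Aldh3a1 show the largest falls, -4.55 and -3.20, and Aldh18a1 and Aldh1l2 the largest rises, 2.06 and 1.74. Aldh3a1, Aldh18a1 and Aldh1l2 are from the list of other aldehyde dehydrogenases.

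For the 6 genes of the set with a mean of at least 5 CPM, the genes with the most similar levels were sought over the 10 libraries (Pearson r of log2 CPM, among 11196 genes). Libraries of a line share their cells, so r is a description. Aldh1a3 was most like Tbc1d23 (r = 0.960) and Id1 (0.960), an inhibitor of basic helix-loop-helix factors, and r was 0.945 and 0.962 over the 8 libraries without G9577. Aldh1a1 was most like Pald1 (0.936), Pacs1 (0.913) and Vps51 (0.910), and Aldh1a2 like Cers6 (0.974), Klhl42 (0.961) and Dusp16 (0.947). Rara was most like Ncor1 (0.983), which encodes a corepressor of unliganded retinoic acid receptors, St6galnac6 (0.980) and Mrpl24 (0.973). Without G9577 the r of Rara with Ncor1 was 0.911. Rarg was most like Sh3rf3 (0.984), Galnt10 (0.984) and Wdr60 (0.982). Rdh10 had the lowest values of the 6, with Rab28 (0.878), Nfs1 (0.865) and Angel2 (0.859).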

How the data were processed

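Polyadenylated RNA from 5 lines was sequenced with and without doxycycline. Libraries were made with a kit that does not mark strand (NEBNext Ultra, per the labels' protocols). Per the submitters' processing notes, bcl2fastq 1.8.4 and STAR 2.5.2a with the mm9 build were used. The deposited values are raw counts per gene from featureCounts 1.6.0 with UCSC gene models and no strand, per the file headers. By the command recorded there, reads with several alignments or within several genes were left out. Gene coordinates are those of the files, 1-based. Gene lengths are exon lengths from the files.

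Counts were filtered with edgeR's filterByExpr (minimum count 10, edgeR 4.0.16 in R 4.3.3), which left 12835 genes holding at least 93.9% of each library's counts, with the lowest share in the off library of G9577. Levels are CPM relative to each library's counts in these genes, scaled by TMM factors. Genes were tested with the two-sided quasi-likelihood F test of edgeR, with line and doxycycline as terms, 4 residual degrees of freedom and Benjamini-Hochberg adjustment (threshold 0.05). The SE given with a fitted log2 change was not estimated separately. It is the absolute change divided by the square root of the F statistic, so it restates the test. For the set chosen on this contrast, it is a description only. Changes in single lines are log2 CPM differences with a prior count of 2, and folds in single lines are ratios of CPM. The scripts were tested on simulated data.

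The members and lists were chosen with earlier results of these data known. Named genes were Mycn, the 8 members, up to 8 genes with the smallest p per list among those past the threshold, the RXR and CYP26 genes, and, for each member with a mean of at least 5 CPM, the 3 genes of largest r, leaving out members and unnamed transcripts. Some genes named by this rule or among the markers are not reported here. Lines pair the libraries by the labels: deviations of a line's libraries from their group means correlated with r of 0.721 to 0.873, against at most 0.273 between lines. The labels name 1 culture per line and condition. On-against-off p-values therefore set a change against its unevenness between these lines. Line-term p-values use the same residual, since no line has a repeated library within a condition. They do not measure the spread between cultures of a line. Alternatives were DESeq2 1.42.0, limma-voom (limma 3.58.1), RLE scaling, library size alone, other filters, no line block and each line left out.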

Additional observations from a re-analysis of the deposited data

Results flagged for a closer look

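In 43 groups of 5 values examined (levels of the 8 genes in each condition, and changes in the 5 lines of these and of the named pathway genes), 4 held a value far from the other 4 by Dixon's test. Chance alone gives about 1 in 20 such groups. Rara in the off library of G9577 was at a log2 CPM of 7.82, against 3.30 to 4.42 in the other lines. The log2 change of Rxra was -1.94 in G9577 and -0.29 to 0.03 in the others. The log2 change of Rdh11 was -0.16 in G9577 and 0.77 to 1.02 in the others. The log2 change of Tgm2 was -0.31 in G9351, where it had 7 and 5 counts, and -1.95 to -1.48 in the others.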

How the results depend on the processing

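With no replicate block for the line, 274 genes instead of 3973 passed the threshold in edgeR. Of the pathway genes 1 instead of 17 passed, with 1 instead of 6 rising and 0 instead of 11 falling. At an unadjusted p of 0.05, 9 pathway genes were lower in that fit, and their lowest adjusted p was 0.123; fits with the block gave at least 5 falling genes. DESeq2 gave 18 falling pathway genes, and called 2997 of all 12835 genes lower, against 2004 in edgeR. With each line left out, 8 to 22 pathway genes passed, 3 to 7 rising and 5 to 15 falling, with the lowest totals without G9351 (8), G4314 (9) and G9529 (11). Calls over all genes tested shifted as well. They were 1729 of 12870 without G9351, 1768 of 12829 without G4314 and 3072 of 12985 without G9529. Without G9577 they were 4493 of 12925, and with all lines 3973 of 12835. Leaving out a line also leaves fewer libraries. Members that differed among lines were 5, and 2 with line as the only term, where 5859 and 2979 of all 12835 genes did. Leaving out each line gave 3 (without G9577, where 4030 of all 12925 genes did) to 6 (without G9529, where 5527 of 12985 did). The cause of these shifts was not tested. Rxrb, not past the threshold, changed sign without G9577 (log2 change 0.05 instead of -0.06; -0.14 to 0.05 over the lines left out). On-against-off log2 changes of the members moved by less than the SD of their line changes under each alternative that gave a value, though Rara turned from 0.24 to -0.77 with no block and to -0.19 with limma-voom. Aldh1a3 and Ttr gave no value without G4314. The call of Aldh9a1 was also lost with RLE scaling, library size alone and both other filters, that of Ncoa2 with no filter, and the line term of Rara with limma-voom (adjusted p = 0.0566). A count of 3 in a library was 0.264 to 0.334 CPM, which limits Rarg, Rarb, Crabp2 and the low lines of Aldh1a3 and Aldh1a2.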
